A study of Mus musculus with 21 samples.

Results

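New isoforms from new start sites were 1494 of the 22612 transcripts that long-read sequencing of mouse gametes and preimplantation embryos yielded after the stages were merged. A transcript was counted here when it had several exons, shared at least 1 intron with a transcript of the GENCODE vM21 annotation (mouse build mm10), had a series of introns that was neither equal to an annotated series nor contained in one, and began more than 300 bases from every annotated start on its strand. They were 29.3% of the 5094 new isoforms of known genes, the other 3600 of which began within 300 bases of an annotated start and served for comparison. The 1494 transcripts fell in 1161 genes, 1079 of them protein-coding and 41 lincRNA genes. Because 922 genes had 1 such transcript and 239 had 2 or more, and because the 1494 transcripts used 1442 distinct start positions, some of them share a start and are not independent of each other.

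The study sequenced sperm, oocytes and embryos at the 1-cell, 2-cell, 4-cell, 8-cell and blastocyst stages, each with 1 pooled long-read library and 2 short-read libraries. Sperm came from the epididymis of DBA/2 males, named DBA/2J in the sample titles and DBA/2N in the protocol, and metaphase II oocytes from C57BL/6J females aged 3 to 5 weeks that had been superovulated with PMSG and hCG. Embryos came from such females mated with DBA/2 males, were isolated from the oviduct 20 h after hCG, grew in KSOM medium and were lysed at 24 to 26 h (1-cell), 46 to 48 h (2-cell), 54 to 58 h (4-cell), 68 to 70 h (8-cell) or 94 to 96 h (blastocyst). Each library held many gametes or embryos lysed together, and the long-read pool of a stage mixed amplified cDNA of both short-read batches, so the long and short reads of a stage do not come from separate embryos.

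A mammalian gene can be transcribed from several promoters, and transcripts from an alternative promoter usually splice a first exon of their own into an exon that the other transcripts share. Such a switch can leave the protein as it is, when the start codon lies in a shared exon, or shorten or replace its amino-terminal end. Mouse oocytes and early embryos are known for this mode of expression, because long terminal repeats of endogenous retroviruses lying inside or upstream of genes act there as promoters, as for the oocyte form of Dicer1. Transcripts stored in the oocyte are degraded around the 2-cell stage, when the embryo's own genome becomes active.

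For 74 of the 1494 transcripts, RefSeq (GRCm38.p6) places the start of a gene within 300 bases of the long-read start, in 61 cases of a gene with the same symbol, and for 44 within 50 bases. These starts are therefore new with respect to GENCODE vM21 and not to every annotation. Among the transcripts whose levels are given in the following paragraphs, those of 5 genes had such a RefSeq start, and their promoter windows (250 bases before the RefSeq start and 50 from it on, sense strand, 5′ to 3′) are shown because several of the results turn on these starts. Capitals mark the bases from the long-read start on. Spin1, which encodes a chromatin reader also found on the meiotic spindle, at chr13:51132547-51132846 (plus strand), Sp110, a nuclear body protein, at chr1:85603842-85604141 (minus strand), Hnrnpf, a splicing factor, at chr6:117907554-117907853 (plus strand), Gm13102 at chr4:144099630-144099929 (plus strand) and H2-D1, a classical major histocompatibility class I heavy chain, at chr17:35262844-35263143 (plus strand) read as follows.
Spin1: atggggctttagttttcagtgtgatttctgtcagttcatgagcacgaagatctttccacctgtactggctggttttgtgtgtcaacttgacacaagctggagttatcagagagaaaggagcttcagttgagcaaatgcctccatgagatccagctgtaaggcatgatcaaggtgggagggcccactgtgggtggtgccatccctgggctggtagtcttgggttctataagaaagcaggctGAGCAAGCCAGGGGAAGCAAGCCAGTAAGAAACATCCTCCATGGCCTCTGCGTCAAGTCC
Sp110: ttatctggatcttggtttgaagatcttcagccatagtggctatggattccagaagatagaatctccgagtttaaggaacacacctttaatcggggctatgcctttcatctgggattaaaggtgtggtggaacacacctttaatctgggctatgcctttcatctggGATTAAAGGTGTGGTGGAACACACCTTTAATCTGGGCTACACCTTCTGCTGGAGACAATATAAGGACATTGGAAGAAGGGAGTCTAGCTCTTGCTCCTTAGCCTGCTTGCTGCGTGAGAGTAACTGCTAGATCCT
Hnrnpf: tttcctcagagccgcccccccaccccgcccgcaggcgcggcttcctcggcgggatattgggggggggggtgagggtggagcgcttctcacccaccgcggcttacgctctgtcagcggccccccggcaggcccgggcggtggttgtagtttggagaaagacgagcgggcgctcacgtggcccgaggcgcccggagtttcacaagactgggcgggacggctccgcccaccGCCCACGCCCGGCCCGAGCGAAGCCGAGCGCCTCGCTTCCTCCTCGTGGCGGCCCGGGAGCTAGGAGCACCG
Gm13102: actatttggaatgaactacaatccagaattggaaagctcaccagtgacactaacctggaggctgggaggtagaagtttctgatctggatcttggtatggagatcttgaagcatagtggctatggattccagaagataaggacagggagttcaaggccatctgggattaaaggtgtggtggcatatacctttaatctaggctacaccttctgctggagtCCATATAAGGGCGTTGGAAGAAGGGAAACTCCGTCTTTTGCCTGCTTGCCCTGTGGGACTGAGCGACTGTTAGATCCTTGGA
H2-D1: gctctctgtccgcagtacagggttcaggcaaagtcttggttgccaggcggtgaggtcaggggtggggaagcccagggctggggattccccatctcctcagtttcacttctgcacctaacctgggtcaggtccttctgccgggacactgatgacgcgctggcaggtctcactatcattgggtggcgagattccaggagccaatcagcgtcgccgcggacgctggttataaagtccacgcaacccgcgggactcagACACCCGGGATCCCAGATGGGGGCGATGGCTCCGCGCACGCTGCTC

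The long-read starts lay 10 bases before the RefSeq start in Spin1, 85 before it in Sp110, 22 before it in Hnrnpf, 32 before it in Gm13102 and 4 bases after it in H2-D1. The windows differed widely in base composition. The Hnrnpf window held 37 CpG dinucleotides and 73.7% G and C, and that of H2-D1 held 19 and 62.3%. The Spin1 window held 2 CpG and 50.7% G and C, the Sp110 window 3 and 45.3%, and the Gm13102 window 3 and 47.0%, against medians of 7 CpG and 52.7% over the 32851 RefSeq windows. The letters TATAAA were searched on both strands between 40 and 20 bases before the start. They were found for 1 of the 57 transcripts whose start lay far enough inside a window, H2-D1 (1.75%), and in 775 of the 32851 RefSeq windows (2.36%).

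Most new starts lay inside genes. Of the 1494 starts, 909 (60.8%, 95% Wilson interval 58.3 to 63.3) fell in an intron of their gene, 349 (23.4%, 21.3 to 25.6) upstream of its outermost annotated start and 236 (15.8%) in an annotated exon. All intervals given for shares of transcripts cover counting error only. The closest annotated start on the strand was at a median of 3985 bases (quartiles 1281 and 10193, range 301 to 335665). The longest distances to an annotated start of the gene itself were 619672 bases in Immp2l and 335665 bases in Rad51b inside genes, and 208831 bases in Son and 156374 bases in Fbxw18 upstream of them. At the limit of 300 bases, the closest transcripts kept were those of Ppcs (301 bases), Gm28913 and Dppa4 (302 bases each), and the closest left out were those of Ntpcr (300 bases), Creg1 and Wfdc6b (298 bases each).

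The typical transcript was an annotated one with a different beginning. The first exon overlapped no annotated exon of the gene in 1224 of 1494 transcripts (81.9%), the first splice acceptor was annotated in 1200 (80.3%) and the first splice donor in 188 (12.6%). In 1141 (76.4%, 74.2 to 78.5) the first intron was the only unannotated intron, while 209 had 2 or more. Among the 3600 new isoforms from annotated starts, the first intron was the only new one in 26.0% and the first exon was new in 4.97%, a contrast that follows in part from the choice of the start. First exons had a median of 110 bases (quartiles 65 and 153), against 121 (75 and 188) in the isoforms from annotated starts, and whole transcripts had a median of 1164 bases and 5 exons against 1401 bases and 7 exons. Where the gene had an annotated start codon (1377 transcripts), 420 (30.5%, 28.1 to 33.0) still held one, and 843 (61.2%, 58.6 to 63.8) began downstream of all of them. In the isoforms from annotated starts these shares were 84.2% and 8.45% of 3374.

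**Figure D1:**
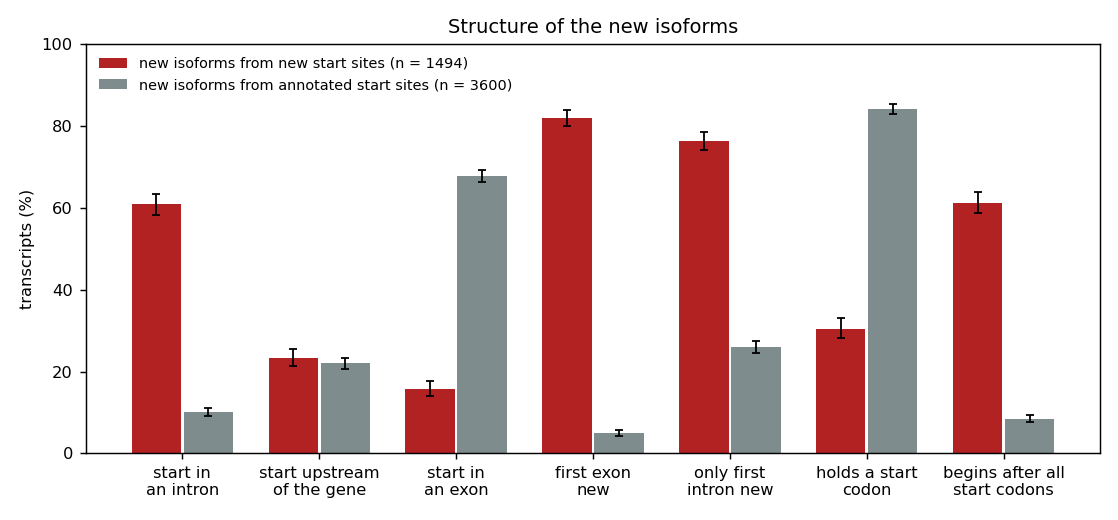
Percent of the 1494 new isoforms from new start sites (red) and of the 3600 new isoforms from annotated start sites (grey) with each feature, with 95% Wilson intervals. The start codon bars are over the 1377 and 3374 transcripts of genes with an annotated start codon. Starts in an intron were 60.8% of the red and 10.1% of the grey group.

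The long-read pools differed in how many of these transcripts they held. The series of introns of 1458 of the 1494 transcripts was found in at least 1 pool and that of 245 (16.4%) in 2 or more, close to the 16.9% of the isoforms from annotated starts. A start within 100 bases was seen in 2 or more pools for 484 transcripts (32.4%) and in 4 or more for 48 (3.21%), against 72.7% and 43.5% for isoforms from annotated starts, whose starts are shared with known transcripts. The 1-cell pool held 422 of them, the oocyte pool 328, the 2-cell pool 281, the 4-cell pool 280, the 8-cell pool 200, the sperm pool 154 and the blastocyst pool 109. As a share of the new isoforms of a pool they were 47.5% (44.3 to 50.8) at the 1-cell stage and 41.3% (37.9 to 44.8) in the oocyte, then 27.3% at the 2-cell, 26.8% at the 4-cell and 22.4% at the 8-cell stage, 18.3% in sperm and 17.4% (14.7 to 20.6) in the blastocyst. Starts in introns were 71.8% of those in the 1-cell pool and 69.5% in the oocyte pool, and 45.9% in the blastocyst pool. Each stage had 1 long-read pool, so these shares have no replicate and the stages were not tested. The paper's quality control shows that the pools also differed in read number and in the length of subreads, from which consensus reads were built. Mean subreads were shortest in the 1-cell runs. Those of the oocyte, sperm and blastocyst runs were also shorter than in any pool between the 2-cell and 8-cell stages, although sperm and blastocyst had the lowest shares. Whether read length or number bears on these shares was not tested.

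Some short-read libraries stood apart from their labels. Levels are given in TPM, the length-corrected abundance of a transcript scaled to the same sum in every library. The summed TPM of 4 genes marking the 2-cell stage (Zscan4c, Zfp352 and others) was 14.3 in 2-cell replicate 1 and 288 in replicate 2, and that of 7 oocyte genes (Zp3, Gdf9 and others) was 115 and 1323 in the same libraries. The sperm libraries held 6 sperm genes (Prm1, Tnp2 and others) at 17183 and 21155 TPM. They also held 4 leukocyte genes (Ptprc, Cd68, Lyz2, Cd3e) at 6243 and 1538 TPM, against at most 13.3 in any other library. Lyz2 alone held 6151 and 1519 of these sums, and Cd3e 0.765 and 0.743. The sum of Cdh1, Epcam and Crisp1 was 2295 and 524 TPM in sperm, 751 in 2-cell replicate 1 and 1206 and 3055 in the blastocyst. Crisp1 stood at 2006 and 335 in sperm and at most 0.857 in any other library. Epcam stood at 288 and 185 in sperm, 748 in 2-cell replicate 1 and 1141 and 3041 in the blastocyst. None of the 5 cumulus and granulosa cell genes had a merged transcript. Blastocyst replicate 2 had 526 of the 1494 transcripts at 1 TPM or more, the fewest of all libraries, and 2-cell replicate 2 had 1267, the most.

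In the short-read libraries the 1494 transcripts held between 1.27% and 5.42% of all TPM. Their share was 5.42% and 4.17% in the oocyte libraries, 4.04% and 3.14% in 1-cell embryos, 2.06% and 3.70% at the 2-cell stage, 3.94% and 3.96% in 4-cell embryos and 3.34% and 3.07% at the 8-cell stage. It was 2.03% and 2.00% in sperm and 1.96% and 1.27% in the blastocyst, so the blastocyst and sperm libraries lay below every oocyte, 1-cell, 4-cell and 8-cell library, and 2-cell replicate 1 lay just above sperm. The spread between stages was larger than that between libraries of a stage (exact 1-sided permutation test over the 135135 pairings of 14 libraries, p = 0.0146, adjusted over 2 tests p = 0.0293). Leaving out 1 library at a time, the exact permutation test passed the threshold in 5 of 14 cases and missed it in 9, with an adjusted p between 0.0530 and 0.0966 without any 1 of the sperm, 4-cell, 8-cell and blastocyst libraries or oocyte replicate 1. Whether the test passed therefore depended on which library was left out. With only multi-exon transcripts in the denominator the exact permutation test gave an adjusted p of 0.220. TPM are relative to all RNA of a library, and fewer cells of a type cannot be told apart from less RNA per cell. The share held by the 10 most abundant of them was 64.4% of their summed TPM in oocyte replicate 1 and 24.0% in 2-cell replicate 2.

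**Figure D2:**
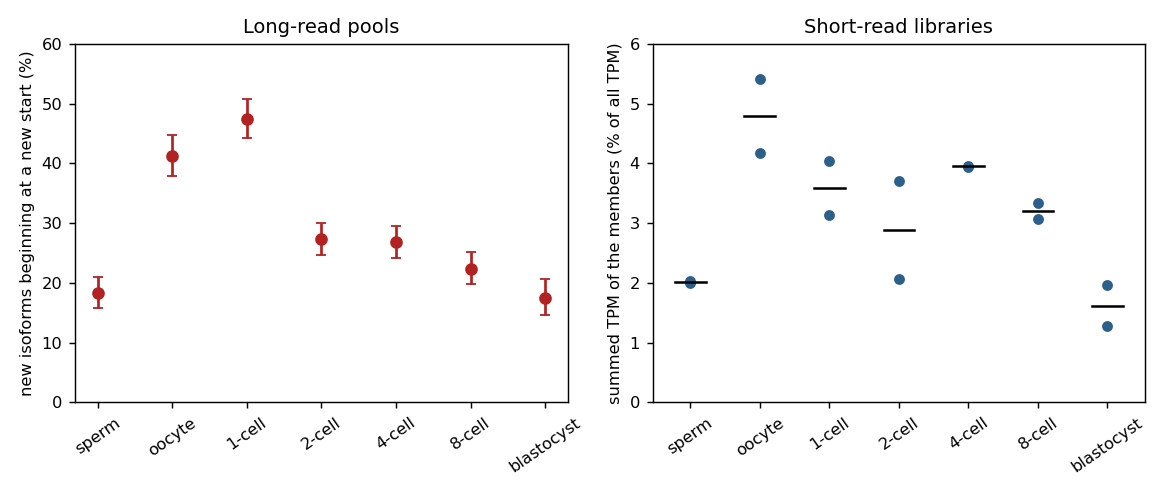
Left, percent of the new isoforms of each long-read pool that began at a new start, with 95% Wilson intervals (1 pool per stage). Right, summed TPM of the 1494 transcripts as a percent of all TPM in each of the 2 short-read libraries per stage (points) with their mean (bar). The 1-cell and oocyte pools were highest on the left (47.5% and 41.3%), and the oocyte libraries on the right (5.42% and 4.17%).

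Most of the transcripts were measurable in the short reads. The mean of their highest stage reached 1 TPM in 1447 of 1494 (96.9%), 10 TPM in 1012 (67.7%) and 100 TPM in 131 (8.77%), and 2 were at 0 in all 14 libraries. Of the 1447, 335 (23.2%) were highest at the 4-cell stage, 262 (18.1%) in the oocyte, 240 (16.6%) at the 1-cell stage, 234 (16.2%) at the 2-cell stage, 182 (12.6%) in sperm, 103 (7.12%) at the 8-cell stage and 91 (6.29%) in the blastocyst. Among 7929 transcripts equal to an annotated one, 25.2% were highest in sperm, 9.41% in the oocyte, 9.93% in 1-cell embryos and 15.8% in the blastocyst. Over 80% of the summed stage means fell in 1 stage for 99 of the 1447 (6.84%), 64 of them in sperm and 9 in the oocyte, against 11.9% of the annotated ones. Of the 1167 transcripts whose introns were found in a single pool, 560 (48.0%) were highest in the short reads of the same stage, from 40 of 132 for the 8-cell pool to 107 of 147 for the sperm pool.

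The most abundant transcripts in the oocyte and at the 1-cell stage belonged to Spin1 and Omt2b. The Spin1 transcript began in an intron 1532 bases from an annotated start of the gene, spliced a new first exon of 75 bases into an annotated exon and was found in the oocyte, 1-cell, 2-cell and 4-cell pools. Its TPM were 7508 and 1796 in the oocyte, 5045 and 3995 in 1-cell embryos, 219.8 and 2104 at the 2-cell stage, 92.2 and 109.7 in 4-cell embryos and 0.734 and 0.796 at the 8-cell stage. The 4-cell and 8-cell libraries did not overlap, and the fall between them was 5.85 ± 1.08 (SE) on the scale of log2(TPM + 1) (limma, adjusted p = 0.0109). It held 99.7% and 99.0% of the TPM of Spin1 in the oocyte libraries, 84.5% and 88.7% in 4-cell embryos and 5.92% and 7.49% at the 8-cell stage. Omt2b, an oocyte maturation gene with a close relative next to it, had a transcript from 531 bases upstream at 12686 and 311 TPM in the oocyte and 5760.3 and 571 in 1-cell embryos. The libraries of each of these stages stood far apart, and reads shared with near-identical copies leave these values uncertain. The introns and the start of the Omt2b transcript were found in the 2-cell pool only.

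Other transcripts shared this early pattern. Bmp5, a secreted growth factor of the BMP family, had a single merged transcript, which began in an intron 3344 bases from the annotated start. Its level was 299.6 and 769.6 TPM in the oocyte, 400 and 643 in 1-cell embryos, 46.4 and 245 at the 2-cell stage, 7.49 and 6.62 in 4-cell embryos and 2.24 and 3.07 in the blastocyst. It was also at 8.71 and 72.5 in sperm. The fall from the 2-cell to the 4-cell stage was 3.75 ± 0.85 (limma, adjusted p = 0.0423), a call lost without 2-cell replicate 2 and without either 1-cell, 4-cell or 8-cell library. Mtus2, a microtubule-associated protein, had 457 and 1599.9 TPM in the oocyte, 182 and 77.1 in 1-cell embryos and 13.4 and 16.8 in 4-cell embryos, where the transcript held 75.4% and 73.4% of the gene. At the 8-cell stage it held 1.57% and 7.51%, and this loss of share passed the test (log2 difference -4.47 ± 0.58, limma, adjusted p = 0.0165). Unc13c, a synaptic vesicle priming factor, had a transcript of 17 exons that began 288116 bases inside the gene. It stood at 248 and 74.5 TPM in the oocyte, 38.4 and 47.7 in 4-cell embryos and 0.784 and 0.352 at the 8-cell stage (change -4.82 ± 1.01, limma, adjusted p = 0.0218). The changes of Mtus2 and Unc13c into the 8-cell stage, like that of Spin1, were not called without any 1 of the 4-cell or 8-cell libraries. The 3 transcripts did not overlap between the libraries of the oocyte and those of the 8-cell stage.

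Dicer1, the ribonuclease that cuts microRNA and endogenous siRNA precursors, had 3 short transcripts of 3 exons that began in annotated exons, 2758 to 3769 bases from an annotated start, and were found in the oocyte and 1-cell pools. The most abundant, of 644 bases, had 147 and 37.9 TPM in the oocyte, 55.1 and 35.4 in 1-cell embryos, 0 and 15.8 at the 2-cell stage and 0 in all 8-cell and blastocyst libraries. From the 1-cell to the 2-cell stage its TPM fell by 3.46 on the log2 scale (SE 1.10, limma, adjusted p = 0.0340) and its share of the gene fell too (log2 difference -4.14 ± 1.01, limma, adjusted p = 0.0233). Without either 1-cell library neither was called, and the fall of TPM was also lost without 2-cell replicate 1 or any 1 of the 8-cell and blastocyst libraries. A second transcript that began 7 bases away had 28.9 and 22.2 TPM at the 2-cell stage, and its change of 0.71 ± 0.65 did not pass the test (limma, adjusted p = 0.434). The 2 transcripts differ in whether the first splice acceptor is annotated, and their overlapping sequence leaves the division of reads between them uncertain.

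**Figure D3:**
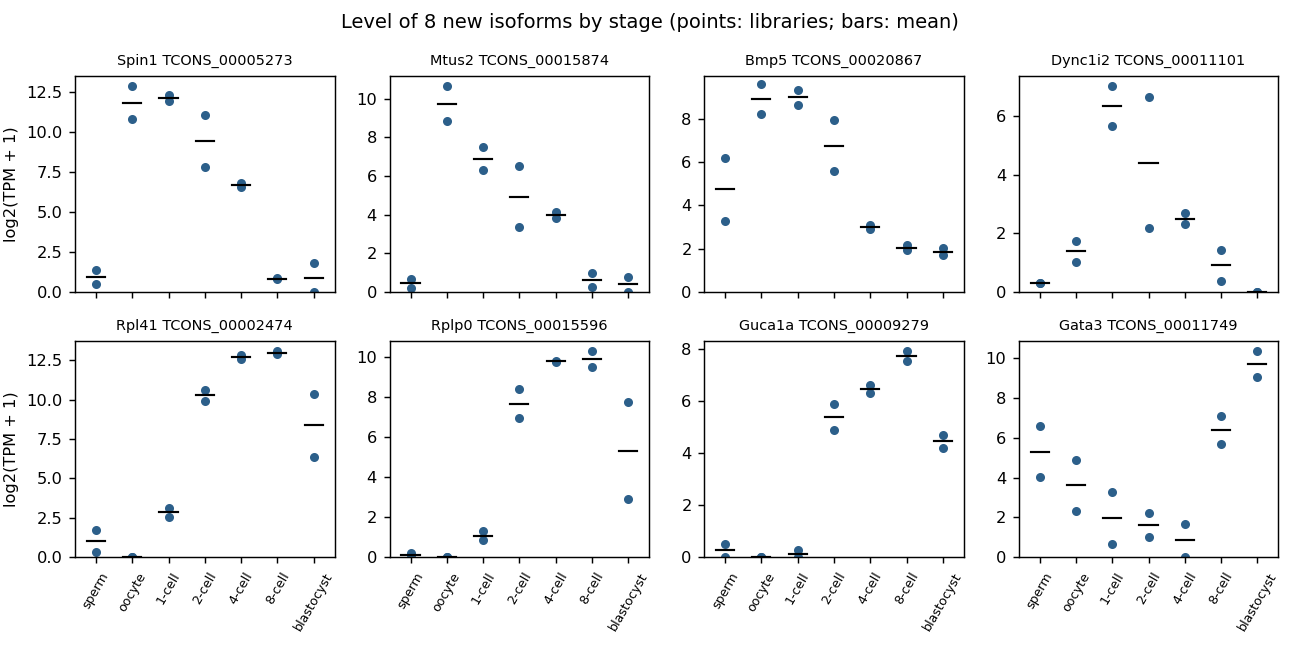
log2(TPM + 1) of 8 transcripts from new starts in 14 short-read libraries (points, 2 per stage) with the stage mean (bars), 1 panel per transcript with its own vertical scale. Spin1, Mtus2, Bmp5 and Dync1i2 in the upper row were low from the 8-cell stage on, and Rpl41, Rplp0 and Guca1a in the lower row were near 0 in the oocyte and high at the 4-cell and 8-cell stages, while Gata3 was highest in the blastocyst.

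Between consecutive stages from oocyte to blastocyst, levels were compared by limma (called at an adjusted p under 0.05) over all 20250 transcripts that passed a filter on low values (1 TPM or more in at least 2 of 12 libraries), which 1378 of the 1494 did. From the oocyte to the 1-cell stage 8 of the 1378 were called higher (0.581%, against a background of 1.92% of all transcripts tested) and 3 lower (0.218%, background 0.0840%). From the 1-cell to the 2-cell stage 271 were higher (19.7%, background 22.9%) and 97 lower (7.04%, background 5.11%). From the 2-cell to the 4-cell stage 35 were higher (2.54%, background 1.46%) and 11 lower (0.798%, background 1.17%). From the 4-cell to the 8-cell stage 7 were higher (0.508%, background 0.681%) and 52 lower (3.77%, background 2.44%), and from the 8-cell stage to the blastocyst 8 were higher (0.581%, background 0.830%) and 55 lower (3.99%, background 1.28%). Rises were thus no more frequent than the background at 4 of the 5 steps, and falls were more frequent at 4 of the 5. Part of this was shared by the 3054 tested new isoforms from annotated starts. Their falls also exceeded the background into the 1-cell (0.196%), 2-cell (6.52%) and blastocyst (1.80%) stages, and their rises into the 4-cell stage (2.39%). Unlike those of the 1378, their falls into the 8-cell stage (1.70%) lay below it. Their rises into the 2-cell (24.6%) and 8-cell (0.688%) stages lay above it. These differences from the background were not tested. The medians of the 1378 were 0.03, 0.29, -0.14, -0.57 and -0.27 on the log2 scale at the 5 steps, and those of all transcripts 0.15, 0.75, 0.01, -0.39 and -0.23.

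**Figure D4:**
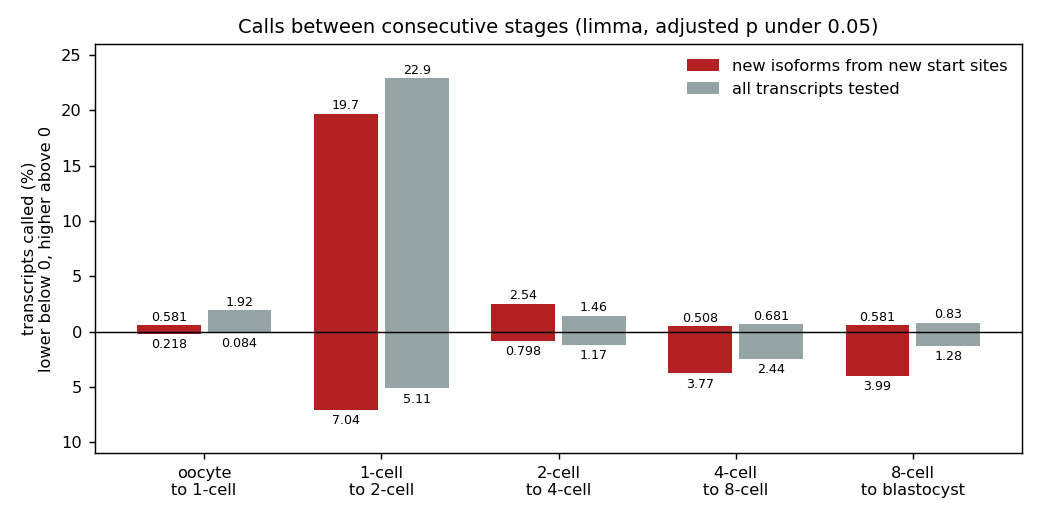
Percent of the 1378 tested transcripts from new starts (red) and of all 20250 tested transcripts (grey) called higher (above 0) or lower (below 0) between consecutive stages. From the 8-cell stage to the blastocyst 3.99% of the red and 1.28% of the grey group were lower.

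The counts rested on few libraries. At the step from the 1-cell to the 2-cell stage, leaving out 2-cell replicate 1 gave 416 higher and 50 lower, leaving out 2-cell replicate 2 gave 213 and 240, and without 1-cell replicate 1 or replicate 2 they were 134 and 27 or 118 and 42. Quantile normalization moved the median of all transcripts at this step from 0.75 to -0.07 and gave 160 higher and 321 lower, so the direction of the majority was not the same under both scalings. In each of these fits the counts over all 20250 transcripts moved in the same direction as those of the 1378, so the swings were not particular to new starts. Over all transcripts falls also outnumbered rises under quantile normalization, but rises still outnumbered falls without 2-cell replicate 2. Whether the 1378 differed from the background under these settings was not tested. Without blastocyst replicate 2 the 55 falls became 10, and without an 8-cell library they became 0 or 1. From the 2-cell to the 4-cell stage there were 49 higher and 208 lower without 2-cell replicate 1, 170 and 24 without 2-cell replicate 2, and 0 and 1 without either 4-cell library. Into the 1-cell stage none was called without 1-cell replicate 1, 1-cell replicate 2 or oocyte replicate 2. Without any 1 of the 4-cell or 8-cell libraries none of the 1378 was called between these stages (limma), with 22 to 28 higher and 124 to 153 lower at an unadjusted p under 0.05. Quantile normalization gave 7 higher and 11 lower from the oocyte to the 1-cell stage and 20 and 51 from the 4-cell to the 8-cell stage, and a pseudocount of 0.1 in place of 1 gave 311 and 55 from the 1-cell to the 2-cell stage and 2 and 6 from the 2-cell to the 4-cell stage. Of the 25 changes of level from the 1-cell to the 2-cell stage that were called among the named transcripts, 16 stayed called when any 1 of the 12 libraries was left out, and of the 28 at other steps 1 did, the fall of Mea1.

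Transcripts were also set apart by the pools in which they were found, which are made from the same cDNA as the short-read libraries, so that the direction of change between these groups was given by the choice and is a description. Of the 534 tested transcripts found only in the oocyte and 1-cell pools, 8 were called higher and 82 lower (15.4%) from the 1-cell to the 2-cell stage, where the background was 22.9% higher and 5.11% lower, and their median change was -0.86. Of the 657 found only in pools of the 2-cell stage to the blastocyst, 240 were higher (36.5%) and 4 lower (0.609%), and their median change was 1.68. At later steps 46 of the 657 were lower from the 4-cell to the 8-cell stage (7.00%, background 2.44%) and 51 from the 8-cell stage to the blastocyst (7.76%, background 1.28%). By position, 89 of 315 transcripts that began upstream of their gene were higher at the 2-cell stage (28.3%) and 16 lower, against 138 of 849 that began in an intron (16.3%) and 69 lower. These differences between groups were not tested.

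The 5 largest rises from the 1-cell to the 2-cell stage with no overlap of libraries were those of Rpl41 (2 transcripts), Rplp0, Uck2 and Tmem160. Rpl41 encodes a small protein of the large ribosomal subunit, and its longer transcript began 2622 bases upstream of the gene's own start with a new first exon of 294 bases. It had 0 TPM in both oocyte libraries, 4.95 and 7.77 in 1-cell embryos, 958 and 1595 at the 2-cell stage, 6099.6 and 7363 in 4-cell embryos, 7698 and 8534 at the 8-cell stage and 1327 and 80.8 in the blastocyst. The rise to the 2-cell stage was 7.42 ± 1.07 (limma, adjusted p = 0.000890). Its share of Rpl41 was 79.6% and 63.7% at the 2-cell stage, 80.8% and 82.3% in 8-cell embryos and 31.3% and 13.6% in the blastocyst. A second Rpl41 transcript, whose start was seen in the 2-cell, 4-cell, 8-cell and blastocyst pools, rose from 1.39 and 1.23 TPM to 118 and 301 (6.36 ± 0.88, limma, adjusted p = 0.000775). Both kept the annotated start codon.

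Rplp0, the stalk protein of the large ribosomal subunit, had 2 transcripts from the same start 2152 bases upstream. The full-length form of 7 exons had 0 TPM in the oocyte, 1.49 and 0.81 in 1-cell embryos, 123 and 336 at the 2-cell stage, 880 and 875 in 4-cell embryos, 713 and 1241 at the 8-cell stage and 212 and 6.48 in the blastocyst. The rise to the 2-cell stage was 6.59 ± 1.21 (limma, adjusted p = 0.00228), and its share of the gene rose with it (6.08 ± 1.02, adjusted p = 0.00512) to 74.7% and 80.5%. The form of 4 exons reached at most 8.45 TPM. Rpl41 and Rplp0 have processed copies elsewhere in the genome, so their TPM depend on how reads were divided among copies. Uck2, which phosphorylates uridine and cytidine, had 0.871 and 0.821 TPM in the oocyte, 1.00e-06 and 1.54 in 1-cell embryos and 409 and 47.2 at the 2-cell stage (6.46 ± 0.97, limma, adjusted p = 0.00102). Tmem160, a transmembrane protein, had 52.7 and 232 TPM at the 2-cell stage after 1.41 and 0 in 1-cell embryos (6.17 ± 0.97, limma, adjusted p = 0.00114).

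Other rises fell in different stages. Guca1a, known as an activator of photoreceptor guanylate cyclase, had a transcript from 2352 bases upstream that was found in the 2-cell, 4-cell, 8-cell and blastocyst pools. It was at or below 0.44 TPM in the sperm, oocyte and 1-cell libraries and at 28.5 and 58.3 at the 2-cell, 78.5 and 97.8 at the 4-cell and 184 and 238 at the 8-cell stage, before 17.3 and 25.1 in the blastocyst (8-cell to blastocyst -3.26 ± 0.66, limma, adjusted p = 0.0258). Its rise to the 2-cell stage was 5.24 ± 0.66 (limma, adjusted p = 0.000544). The 2 largest rises from the 2-cell to the 4-cell stage were those of Gm13102, from 0.45 and 1.18 TPM to 39.3 and 51.5, and of Dtnbp1, a subunit of a lysosome biogenesis complex, from 3.38 and 0.946 to 60.3 and 69.7. From the 4-cell to the 8-cell stage they were those of Gata3, a transcription factor of the trophectoderm, and Gm5907, from 0 in both libraries to 32.3 and 20.3 TPM. The Gata3 transcript began 10047 bases inside the gene, downstream of its start codons, and had 2.22 and 0 TPM in 4-cell embryos, 51.0 and 135 at the 8-cell stage and 536 and 1284 in the blastocyst, with 15.1 and 94.4 in sperm (rise to the 8-cell stage 5.55 ± 1.11, limma, adjusted p = 0.0164). It held 68.3% and 66.6% of Gata3 in the blastocyst. Its introns and start were found in the 1-cell long-read pool only, not in the 8-cell or blastocyst pool. Into the blastocyst the largest rises were those of Wnk2, a kinase of ion transport, from 0.346 and 0.517 to 13.7 and 66.1 TPM, and Gm4926, from 0.534 and 0.516 to 42.8 and 12.5. Gm5907, Wnk2 and Gm4926 had no other merged transcript, so their values cannot be told apart from those of the whole gene. Each of these 6 rises after the 2-cell stage was lost without a library of the earlier or the later stage, and so was the fall of Guca1a into the blastocyst.

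The 5 largest falls from the 1-cell to the 2-cell stage were those of Zfyve21, Sp110, Slc30a3, Scpep1 and Oas1h. Zfyve21, an endosomal protein, had a transcript at 289.6 and 413 TPM in 1-cell embryos and 0 and 0.338 at the 2-cell stage (change -8.23 ± 1.61, limma, adjusted p = 0.00322), although its oocyte libraries held 4.33 and 688. One Sp110 transcript from the start shown above had 109 and 183 TPM in the oocyte, 16.2 and 64.9 in 1-cell embryos and 0 in every later library (change -5.08 ± 0.68, limma, adjusted p = 0.000737). Its series of introns was found in no long-read pool. Slc30a3, a vesicular zinc transporter with no other merged transcript, fell from 529 and 138 to 9.9 and 7.83 TPM, a call lost without 1-cell replicate 1. Scpep1, a serine carboxypeptidase, fell from 30.0 and 49.2 to 0 and 2.39, and its share of the gene fell by 6.51 on the log2 scale (SE 0.64, limma, adjusted p = 0.000955). Oas1h, of the oligoadenylate synthetase family, fell from 49.3 and 95.9 to 1.16 and 5.44. At other steps the largest falls with no overlap were those of Papola (nuclear poly(A) polymerase) and Ptpre (a receptor-type tyrosine phosphatase) into the 1-cell stage, of Ninj1 and Mea1 into the 4-cell stage, of Spin1 and Unc13c into the 8-cell stage, and of Pfdn5 and Rpl41 into the blastocyst. Pfdn5, a subunit of the prefoldin chaperone, had 99.0 and 103 TPM at the 8-cell stage and 1.88 and 1.11 in the blastocyst (change -5.37 ± 0.70, limma, adjusted p = 0.00459), and the call was lost without either 8-cell library.

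Sgk3, a kinase related to Akt, and Sp110 show how differently these transcripts were placed. Sgk3 had no other merged transcript, and its transcript of 13 exons began in an intron, 7959 bases from the annotated start and after its start codons, in the 8-cell pool. It had 0.0765 and 0.203 TPM in the oocyte, 0.304 and 0.0739 in 1-cell embryos, 5.80 and 12.7 at the 2-cell stage, 59.6 and 41.3 in 4-cell embryos, 48.8 and 39.1 at the 8-cell stage and 15.6 and 13.6 in the blastocyst, with 6.29 and 27.6 in sperm. Its rise from the 1-cell to the 2-cell stage was 3.03 ± 0.64 (limma, adjusted p = 0.00498). Sp110 had 7 transcripts from 4 starts 5074 to 5159 bases upstream of the gene. With 10 merged transcripts of this gene, the division of reads among them is uncertain. While the transcript described above was at 0 from the 2-cell stage on, one of 13 exons from the same start rose from 0.0408 and 0 TPM in the oocyte to 55.3 and 13.0 in 1-cell embryos (4.78 ± 0.76, limma, adjusted p = 0.00875) and lay between 20.0 and 38.4 from the 2-cell to the 8-cell stage. It fell to 2.41 and 1.05 in the blastocyst (-3.58 ± 0.76, limma, adjusted p = 0.0308). The rise was not called without oocyte replicate 2 or either 1-cell library, nor the fall without any 1 of the oocyte, 4-cell, 8-cell and blastocyst libraries. Baz1a, a subunit of chromatin remodelling complexes, had a transcript of 21 exons from an intron, whose series of introns was found in no long-read pool. Only its start was seen, in the 2-cell, 4-cell, 8-cell and blastocyst pools. The Baz1a transcript had at most 0.125 TPM in the oocyte and 1-cell libraries, 0.909 and 29.5 at the 2-cell, 46.2 and 69.5 at the 4-cell and 19.3 and 1.04 at the 8-cell stage, and no step was called. Ehbp1, an endocytic adaptor, and Ceacam10, an adhesion molecule of the immunoglobulin family, had transcripts whose 2-cell libraries also stood apart, at 1.46 and 21.9 TPM and at 0 and 5.92. Gpbp1, a transcription factor, had 5 transcripts from a single start 8283 bases upstream, chosen here after their values were seen. Each of the 5 was highest at the 2-cell or 4-cell stage, and none exceeded 2.43 TPM in any oocyte, 1-cell, 8-cell or blastocyst library.

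Levels were also expressed as the share of the gene's TPM, for genes with another merged transcript (1196 of the 1494). The median share over genes of at least 10 TPM lay between 1.07% in blastocyst replicate 2 and 20.7% in 2-cell replicate 2. The 2-cell libraries (5.77% and 20.7%) spanned most of that range, and the spread between stages did not exceed that between libraries of a stage beyond the threshold (exact 1-sided permutation test over 135135 pairings, p = 0.243, adjusted p = 0.243). Without 2-cell replicate 1 the exact permutation test gave an adjusted p of 0.00383, and without 2-cell replicate 2 of 0.0332. The transcripts from new starts held more than 50% of the gene in 160 of 858 cases in 1-cell embryos (18.6%), 136 of 765 in the oocyte (17.8%), 178 of 1010 at the 2-cell stage (17.6%), 145 of 883 in 4-cell embryos (16.4%), 113 of 806 at the 8-cell stage, 90 of 716 in sperm (12.6%) and 75 of 780 in the blastocyst (9.62%). For isoforms from annotated starts these shares were between 7.15% and 11.0%, and for transcripts equal to an annotated one between 51.7% and 57.4%. In at least 1 stage 383 of 1180 transcripts from new starts (32.5%) held more than 50% of their gene, and 151 of these were under 10% in another stage. These counts were not made for the other groups.

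Shares changed mainly at the 2-cell stage. Of 1105 tested transcripts, 164 changed their share of the gene from the 1-cell to the 2-cell stage (14.8%, against a background of 15.6% of 11093), 94 of them upward and 70 downward. At the other steps they were 0 from the oocyte to the 1-cell stage (background 0.144%), with 79 at an unadjusted p under 0.05, then 4 to the 4-cell stage (0.362%, background 0.207%), 7 to the 8-cell stage (0.633%, background 0.442%) and 6 to the blastocyst (0.543%, background 0.270%). Both level and share were called higher at the 2-cell stage for 61 of the 1105, and 150 rose in level without a called change of share. The same counts over all transcripts were not made. Papola had called changes of level in both directions. Its transcript from an intron 5255 bases from an annotated start had 10.3 and 64.5 TPM in the oocyte, 1.12 and 0.913 in 1-cell embryos and 94.4 and 102 at the 2-cell stage (-3.76 ± 0.84 and 5.62 ± 0.84, limma, adjusted p of 0.0384 and 0.000986). Its share of the gene was 28.6% and 47.7%, then 2.41% and 4.60%, then 58.2% and 56.5%, and the second change passed the test (4.34 ± 0.56, limma, adjusted p = 0.00206). The fall was called only without oocyte replicate 1 or without either 2-cell library when 1 library was left out, and the rise in each case.

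Chek2, the checkpoint kinase, had a transcript from 8471 bases upstream that retained the start codon. Its level was 0 in the oocyte and 1-cell libraries, 7.08 and 14.5 TPM at the 2-cell, 59.3 and 58.7 at the 4-cell and 8.53 and 8.20 at the 8-cell stage and 0.18 and 0 in the blastocyst. All 4 steps from the 1-cell stage on were called (adjusted p of 0.00146, 0.0492, 0.0259 and 0.0200, limma). Its share of the gene fell from 76.0% and 76.7% in 4-cell embryos to 23.5% and 24.5% at the 8-cell stage (-3.19 ± 0.53, adjusted p = 0.0400). The step into the 2-cell stage stayed called without any 1 library, and the later steps and the fall of share did not, each being lost without either 8-cell library or, into the 4-cell stage, either 4-cell library. Dync1i2, an intermediate chain of cytoplasmic dynein, had a transcript with 2.37 and 1.04 TPM in the oocyte and 49.1 and 129 in 1-cell embryos (4.95 ± 1.14, limma, adjusted p = 0.0455), which was not called without any 1 of the oocyte, 1-cell, 4-cell, 8-cell and blastocyst libraries. It held 72.9% and 95.4% of the gene at the 1-cell stage and 29.5% and 33.2% in 4-cell embryos.

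**Figure D5:**
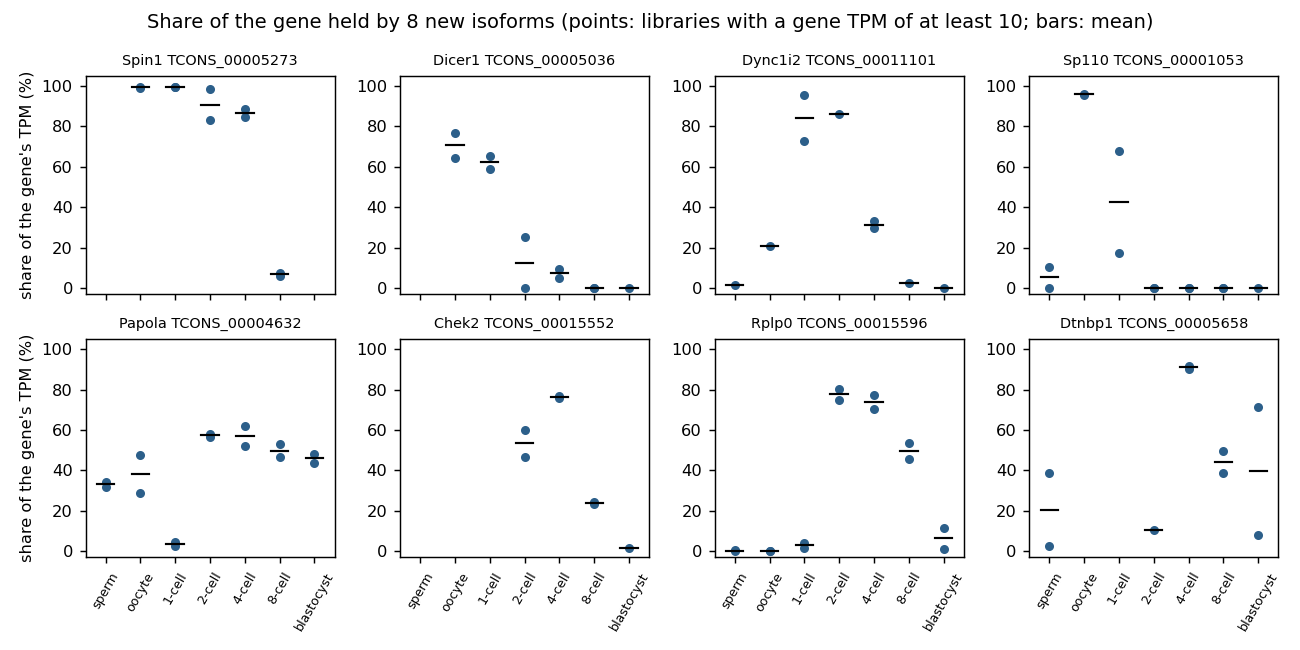
Share of the gene's TPM held by 8 transcripts from new starts in the libraries where the gene reached 10 TPM (points) with the stage mean (bars). Spin1 held 99.7% and 99.0% in the oocyte and 5.92% and 7.49% at the 8-cell stage, and Chek2 76.0% and 76.7% in 4-cell embryos.

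At the ends of the series the most abundant transcripts were those of H2-D1 and Alad in sperm and of Tpt1 and Gata3 in the blastocyst. H2-D1 had 783 and 6684 TPM in sperm and at most 31.9 elsewhere. Alad, a heme synthesis enzyme, had 3868 and 305 in sperm, but also 77.6 and 364 in the blastocyst, so its sperm and blastocyst libraries overlap. The leukocyte genes stood at 6243 and 1538 TPM in the sperm libraries, of which Lyz2 alone held 6151 and 1519, and their part in the H2-D1 and Alad values was not tested. Tpt1, the translationally controlled tumor protein, was measured in all stages, from 215 TPM in sperm replicate 1 to 2830 in 2-cell replicate 1, and its transcript from 4357 bases upstream held 65.9% to 100% of the gene. It, too, has processed copies in the genome. At the 4-cell and 8-cell stages the second most abundant after Rpl41 was Cks2, a subunit of cyclin-dependent kinases, from 2724 bases upstream (1644 and 1888 TPM in 4-cell embryos). The introns of the Cks2 transcript were found in the 1-cell pool only. The highest shares of a gene with annotated transcripts were those of Fbxw18 and Fam53c in sperm, Spin1 and Dirc2 in the oocyte, Rex2 and Spin1 in 1-cell embryos, Rex2 and Pglyrp1 at the 2-cell stage, Alox12 and Slc35b1 in 4-cell embryos, Fbxw18 and Spi1 at the 8-cell stage and Ak1 and Spi1 in the blastocyst, between 96.5% and 100% of the stage means. Spi1, the myeloid transcription factor PU.1, was at no more than 19.0 TPM there.

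Gene groups are described by counts alone. Of the 10924 known genes with a merged transcript, 1161 (10.6%) had one from a new start, and from the 1-cell to the 2-cell stage 22.9% of all transcripts tested were called higher and 5.11% lower. Of 63 chromatin regulators, 51 had a merged transcript and 3 of these (5.88%; Chd4, Ezh1 and Smarca4) had one from a new start, 6 in all, none of which was called at any step by limma (quantile normalization called 2 of Chd4 lower at the 2-cell stage). The most abundant, of the nucleosome remodeller Chd4, began 1408 bases upstream and had 112 and 42.5 TPM in 1-cell embryos and 10.5 and 29.6 at the 2-cell stage. Smarca4, the ATPase of another remodelling complex, had 18.0 and 32.0 TPM in 4-cell embryos. Of 46 splicing factors, 42 had a merged transcript and 4 (9.52%) one from a new start, 7 in all, of which 1 was called, an Hnrnpf transcript that rose from 3.11 and 3.75 TPM to 54.2 and 16.7 at the 2-cell stage (2.82 ± 0.76, limma, adjusted p = 0.0169), a call that was lost under quantile normalization and without 2-cell replicate 1 or either 1-cell library. It began at the CpG-rich start shown above. A second Hnrnpf transcript from 7 bases further on had 109.9 and 392 TPM in the oocyte and 67.0 and 179.8 at the 2-cell stage. The Hnrnpa2b1 transcript had 628 and 589.9 TPM in 4-cell embryos and 594 and 0 at the 8-cell stage, where 1 library was at 0 and the other near the 4-cell level. The Hnrnpa1 transcript had 122 and 121 TPM in the oocyte and 24.0 and 9.54 in the blastocyst.

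Of 38 cell cycle and checkpoint genes, 34 had a merged transcript and 6 (17.6%) one from a new start, 6 in all. With a background of 22.9% called higher, 2 of the 6 rose at the 2-cell stage, those of Chek2 and Aurkb (a mitotic kinase, 3.67 and 1.18 to 8.80 and 22.1 TPM, 2.24 ± 0.76, limma, adjusted p = 0.0440). The Aurkb call was lost without 2-cell replicate 2 and without any 1 of the oocyte, 1-cell, 4-cell and 8-cell libraries. Under quantile normalization Chek2 stayed higher and transcripts of Cdk1 and Ccnb3 were called lower. That of the spindle checkpoint kinase Bub1 had 12.6 and 13.3 TPM in 4-cell embryos and 0 in the oocyte and 1-cell libraries, and that of Wee2, a kinase that holds oocytes in meiotic arrest, 56.6 in 2-cell replicate 2 and 8.20 in replicate 1. Of 31 sperm and spermatid genes 2 had one. Tssk3, a testis kinase with no other merged transcript, was at 30.5 and 19.3 TPM in sperm and below 1 elsewhere. The transcript of Ldhc, the testis lactate dehydrogenase, rose from 0 and 0.319 TPM to 2.42 and 10.7 at the 2-cell stage (2.46 ± 0.62, limma, adjusted p = 0.0120), a call lost without either 1-cell library. Of 10 genes with a known germline or embryo promoter, Dicer1 and Spin1 had 4 transcripts from new starts, of which 1 (Dicer1) fell at the 2-cell stage and none rose. Of 151 Zfp genes with a merged transcript, 10 (6.62%) had 17 of them. At the 2-cell stage 5 of the 16 tested rose and none was called lower, against a background of 22.9% and 5.11%, but 3 of the 5 were of Zfp821 and not independent (1 each of Zfp869 and Zfp560). Under quantile normalization 2 were higher and 2 lower. The most abundant Zfp821 transcript, from 10315 bases upstream, had 28.2 and 4.16 TPM at the 2-cell stage and 46.0 and 42.2 in 4-cell embryos, and its rise was lost without 2-cell replicate 1 or either 1-cell library.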

How the data were processed

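What was deposited were, per stage, the transcript coordinates that the authors assembled from PacBio long reads, their merged transcript set on mm10, and a file per short-read library with the TPM that the authors computed for each merged transcript with Salmon, which the submitters' processing notes name beside GSNAP, STAR and Cufflinks. The TPM sum to 1000000 per library, so the read depth behind a value is unknown, no interval for a TPM is given, and TPM of overlapping transcripts are estimates. Bmp5, Sgk3, Slc30a3, Tssk3, Wnk2, Gm4926 and Gm5907 had a single merged transcript each. The TPM of such a transcript cannot be told apart from those of the whole gene. Files with TPM on a separate transcript set were not used.

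Merged transcripts were compared with GENCODE vM21 by their introns and starts. The members and gene lists were chosen with earlier results of these data known. A start codon was counted as held when an annotated one lay in an exon, which does not show that it is used. Libraries were grouped and numbered by the sample titles, which number the 8-cell libraries in the opposite order to the file names. The study's methods describe 2 batches of pooled embryos per stage. The p-values of limma rest on the spread between the 2 libraries of a stage, pooled over all stages from oocyte to blastocyst. A library of any of these stages thus bears on every call, other than in the fit on 4 libraries.

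Levels were tested with limma (version 3.58.1, R 4.3.3) on log2(TPM + 1) over 12 libraries (sperm left out), with Benjamini-Hochberg adjustment over all transcripts and a threshold of 0.05. Fold changes on this scale understate those of low transcripts. Shares of a gene were tested as log2((TPM + 1)/(rest of the gene + 1)). The fits were tested on simulated data. Genes named in the text were fixed by a rule, other than Gpbp1 and genes named only to spell out small counts or limits, which were chosen after their values were seen: transcripts that the study names, the 5 largest rises and 5 largest falls from the 1-cell to the 2-cell stage and 2 at other steps among calls with no overlap of libraries, the 2 of highest TPM and of highest share per stage, the longest distances, and up to 4 per gene list (3 for Zfp genes). Python 3.11.15 and scipy 1.17.1 were used. Alternatives are given in the closing section. No genome sequence was used here, so starts were not compared with repeats, and grouping of start sequences was not run. Sequence at the start was at hand for 302 of the 1494 starts (20.2%), so a check of GGG before the starts is void.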

Additional observations from a re-analysis of the deposited data

How the results depend on the processing

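With 2 libraries per stage the counts of calls depended on the settings, and the cause was not tested. The counts are given as the number of transcripts from new starts called by limma, in the order of the steps where each moved by over 1.5 times. Counts over all transcripts also moved with the settings and with the library left out, and are not listed here. Replicate numbers do not pair the libraries (correlations of deviations between same-numbered libraries from -0.4862 to 0.4148). The titles and the deposited file names number the 8-cell libraries in opposite order. The titles were followed, the correlations would range from -0.4862 to 0.3262 with the other order, and the block was fitted with the titles' numbers only. With the replicate number as a block, the calls were 5 higher and 1 lower into the 1-cell stage, 19 and 5 into the 4-cell stage, 33 lower into the 8-cell stage, and 5 higher and 33 lower into the blastocyst, and shares changed for 0, 2 and 0 at the last 3 steps (160, 175 and 137 at an unadjusted p under 0.05). Into the 2-cell stage the block gave 239 higher and 74 lower. Quantile normalization gave 11 lower into the 1-cell stage, 160 higher and 321 lower into the 2-cell stage, 96 and 35 into the 4-cell stage, 20 higher into the 8-cell stage, 16 higher into the blastocyst, and 9, 4 and 2 changed shares at the last 3 steps. Weighting the spread by stage gave 6 lower into the 1-cell stage, 116 and 13 into the 2-cell stage, 0 and 1 into the 4-cell stage (119 and 57 at an unadjusted p under 0.05), 77 and 401 into the 8-cell stage, 87 lower into the blastocyst, and 69, 0, 190 and 24 changed shares from the 2-cell stage on. A fit on the 4 libraries of the 1-cell and 2-cell stages called 0 higher and 0 lower, with 280 and 62 at an unadjusted p under 0.05. A pseudocount of 0.1 gave 55 lower into the 2-cell stage, 2 and 6 and 0 changed shares into the 4-cell stage, and 2 higher and 34 lower into the blastocyst. Genes defined by the authors' loci gave 19 changed shares into the 8-cell stage.

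Leaving out each library in turn, with the lone library of a stage assumed to vary like the others, the calls ranged from 0 to 18 higher and 0 to 7 lower into the 1-cell stage, 118 to 416 and 27 to 240 into the 2-cell stage, 0 to 170 and 1 to 208 into the 4-cell stage, 0 to 19 and 0 to 138 into the 8-cell stage, and 0 to 15 and 0 to 122 into the blastocyst. Changed shares ranged from 0 to 3, 64 to 213, 0 to 24, 0 to 22 and 0 to 16. The exact permutation test of the share of all TPM gave an adjusted p from 0.00399 to 0.0966, and of 0.220 with only multi-exon transcripts in the denominator. That of the median share gave an adjusted p from 0.00383 to 0.403 (exact permutation test). The number of transcripts was 1798 with starts over 100 bases away, 1188 over 1000 bases, and 1737 when a shared splice site was enough. Of the named changes, 3 not called turned in sign: without 1 library each, that of Ehbp1 from the 1-cell to the 2-cell stage ranged from -0.32 to 2.90, that of the 4-exon Rplp0 transcript from 0.00 to 0.49 (-0.10 with quantile normalization) and that of Ceacam10 from -0.00 to 2.79. Repeat overlap, GGG before the starts and their alternatives were not run, since no genome sequence was used.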
